A study of Mus musculus with 12 samples.

Results

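The genes described here code for the 5 enzyme complexes of mitochondrial oxidative phosphorylation, followed in the livers of wild type and Nrf2 null mice given vehicle or CDDO-Im. They were chosen by symbol alone, from probe sets annotated to a single gene whose symbol begins with Nduf (followed by a, b, c, s or v), Uqcr, Cox (numbers 4 to 8) or Atp5, or is Sdha, Sdhb, Sdhc, Sdhd or Cyc1. The rule found 91 of the 18193 genes tested, with 44 in complex I, 4 in complex II, 9 in complex III, 17 in complex IV and 17 in complex V. The complex was also assigned by symbol alone, so every Nduf gene, Ndufa4 and Ndufa4l2 among them, was counted in complex I. Of these 91, 74 are subunits of the enzymes in liver, 8 are Ndufaf genes, which code for assembly factors of complex I, 8 are isoforms best known from other tissues or from hypoxia, and 1 is Cox7a2l, a factor of supercomplex assembly. The symbols therefore cover more than subunits, and the roles are kept apart in what follows.

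Liver RNA of male mice was hybridised to 12 one-colour Affymetrix arrays, in 4 groups of 3. The groups were wild type with vehicle, wild type with CDDO-Im, Nrf2 null with vehicle and Nrf2 null with CDDO-Im, where Nrf2 null is labelled as an Nrf2 knockout with no allele or strain named. CDDO-Im, an imidazolide of the synthetic triterpenoid CDDO and an activator of the Nrf2 pathway, was given by gavage at 30 in the labels' unit of uM/kg, and the labels give 6 hours for all groups. The labels number the replicates without naming animals, so the spread behind each p-value may be technical.

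The vehicle titles, all 6 of them, end in a bracketed digit 2 and the CDDO-Im titles do not, so an effect of that unexplained mark and one of CDDO-Im cannot be told apart. The Nrf2 gene, Nfe2l2, read 8.60 ± 0.09 and 8.73 ± 0.39 (log2 intensity, mean ± SD, n = 3) in wild type with vehicle and CDDO-Im, against 4.71 ± 0.24 and 4.89 ± 0.10 in Nrf2 null, with all 6 Nrf2 null arrays below all 6 wild type arrays. Hepatocyte markers, 7 of 8 measured, had a median log2 intensity between 13.43 and 13.99 on all 12 arrays. Markers of pancreatic acinar cells, 8 of 12 measured, had a median of 10.85 on wild type vehicle replicate 3 and 9.19 on Nrf2 null vehicle replicate 2, against 6.35 to 6.65 on the other 10 arrays. Several results that rest on either array, though not all, are therefore also given without it.

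Oxidative phosphorylation passes electrons from NADH through complex I (NADH dehydrogenase), or from succinate through complex II (succinate dehydrogenase), to ubiquinone, then through complex III (the cytochrome bc1 complex) and cytochrome c to complex IV (cytochrome c oxidase), and complex V (ATP synthase) uses the resulting proton gradient to make ATP. The subunits of complex II are all coded in the nucleus, whereas the other complexes combine nuclear and mitochondrial gene products, so that nuclear factors such as nuclear respiratory factor 1 (gene Nrf1), the ETS family factor GABP, the oestrogen related receptor alpha and the PGC-1 coactivators are known to set the transcription of many subunits. GABP is also called nuclear respiratory factor 2, and neither it nor nuclear respiratory factor 1 is the Nrf2 of the knockout, which is the stress-response factor coded by Nfe2l2.

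In Nrf2 null liver, 5 of the 91 genes were called higher with CDDO-Im than with vehicle. The differences over the other members lay mostly on the higher side. The 5 genes called (adjusted p under 0.05, limma's moderated test with Benjamini-Hochberg adjustment over all genes) were Sdhb, Ndufa6, Ndufaf1, Ndufa13 and Ndufc2. That is 5.49% of the members, against 5.9% of all genes called in this comparison (3.58% called higher) and 8.25% of the genes whose mean lies above the array medians, so the share of calls was close to the background. No member was called lower. For 37 members every CDDO-Im array stood above every vehicle array, 40.7% of the members, against 11.6% of all genes and 14.7% of the genes above the array medians. Without Nrf2 null vehicle replicate 2, an array with acinar transcripts, the same held for 49 members (53.8% against 15.2% of all genes). For 4 members, Ndufaf7, Cox6a2, Atp5e and Atp5g1, every CDDO-Im array stood below every vehicle array, as for 11.4% of all genes. The median difference over the 91 members was 0.14 log2, with 70 higher and 21 lower in sign, beside -0.01 over all genes tested.

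In wild type liver none of the 91 members was called, where 1.82% of all genes were, and 10 had an unadjusted p under 0.05 (7 higher, 3 lower), against 13.6% of all genes. The median difference was 0.04 log2, beside 0.01 over all genes, with 58 members higher and 33 lower in sign, and it was -0.03 without wild type CDDO-Im replicate 1 and 0.11 without replicate 3. Every CDDO-Im array stood above every vehicle array for 5 members (8.42% of all genes did so) and below for 2 (8.18% of all genes), together 7.69% of the members against 16.6% of all genes. The count of 5 rested on single arrays. It was 24 (26.4% of members against 19.4% of all genes) without wild type vehicle replicate 3, the array with the highest acinar markers, 27 (29.7% against 12.6%) without wild type CDDO-Im replicate 3, and 8 (8.79% against 16.9%) without wild type CDDO-Im replicate 2. Of the 7 on all arrays only Ndufb5 and Uqcr10 were subunits of the liver enzymes.

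**Figure D1:**
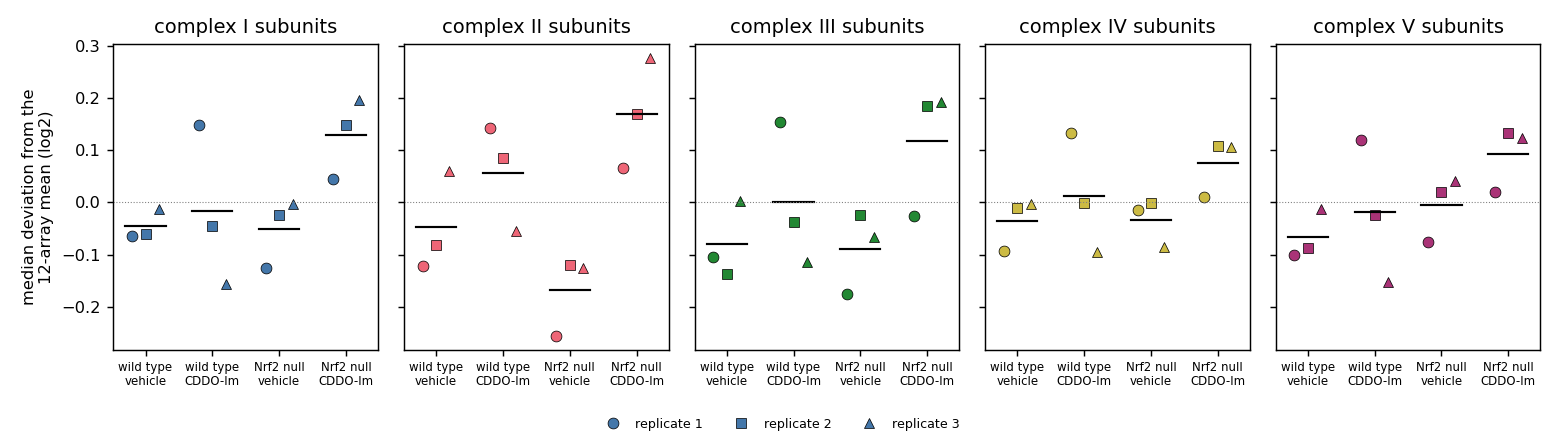
For each complex, each point is 1 array and gives the median over that complex's subunits of the log2 deviation from the gene's mean over the 12 arrays (vertical axis, log2). Horizontal bars are the means of 3 arrays and the marker shape is the replicate number, which the labels do not say links arrays across groups. In complex II the 3 Nrf2 null CDDO-Im arrays lie between 0.07 and 0.28 and the 3 Nrf2 null vehicle arrays between -0.26 and -0.12, while the wild type groups overlap in every complex.

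The wild type CDDO-Im arrays differed among themselves in the same order in all complexes. The median deviation over the 91 members was 0.13, -0.04 and -0.14 on the wild type CDDO-Im arrays in replicate order, a spread as wide as that between groups. Wild type CDDO-Im replicate 1 was the highest of its group for 68 of the 91 members and replicate 3 the lowest for 68. In the Nrf2 null the CDDO-Im arrays stood at 0.02, 0.12 and 0.17 and the vehicle arrays at -0.09, -0.00 and -0.02, so these groups did not overlap. The Nrf2 null vehicle arrays did not keep 1 order in all complexes. Replicate 3 of that group was the lowest for complex IV subunits (-0.08) and the highest for complex V subunits (0.04). Subunits still often stood high or low together on an array, and counts over them are not counts of independent genes.

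In complex II the median difference over its 4 genes in the Nrf2 null was 0.34 log2, above the 0.24 of complex III and 0.18 of complex I. When each gene was taken as the mean of all its probe sets, the medians of complexes II and III were both 0.21. Sdhb, the iron-sulphur subunit, read 11.28, 11.24 and 11.35 with vehicle and 11.82, 12.17 and 12.06 with CDDO-Im in the Nrf2 null. The groups did not overlap, and the difference of 0.73 ± 0.15 log2 (SE), a 1.66-fold rise, had an adjusted p of 0.0196 by limma. In wild type liver Sdhb read 11.05, 11.16 and 11.71 with vehicle and 11.87, 11.64 and 11.71 with CDDO-Im, and the difference of 0.44 ± 0.15 was not called (adjusted p = 0.2 by limma). Wild type vehicle replicate 3, the array with the highest acinar markers, was the vehicle array that met the CDDO-Im range, and without it the wild type difference was 0.64 with an adjusted p of 0.00347. The 2 genotypes' differences for Sdhb were not shown to differ, at -0.29 (95% interval -0.76 to 0.17, wild type minus Nrf2 null, adjusted p = 0.858).

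The other genes of complex II were not called. Sdhd, which codes for a membrane anchor subunit, read 11.25, 11.55 and 11.56 with vehicle and 11.72, 11.97 and 11.997 with CDDO-Im in the Nrf2 null, 0.44 ± 0.13 higher (adjusted p = 0.0675 by limma). Its second probe set differed by 0.05. Sdha, the flavoprotein that oxidises succinate, read 11.53, 11.58 and 11.56 against 11.79, 11.71 and 11.91, a difference of 0.24 ± 0.08 (adjusted p = 0.0982), and in wild type 11.78, 11.76 and 11.68 against 11.85, 11.94 and 11.70. Sdhc, the other membrane anchor, differed by 0.18 ± 0.08. All 4 genes were higher without overlap in the Nrf2 null, against 11.6% of all genes. None was in wild type, against 8.42% of all genes.

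Complex I held the other calls, all in the Nrf2 null, where 5.9% of all genes were called. They were 3 of its 35 subunits (8.57%) and 1 of 8 assembly factors (12.5%). Ndufa6, an accessory subunit of the LYR motif family, read 10.20, 10.58 and 10.51 with vehicle and 10.89, 10.999 and 11.14 with CDDO-Im, a rise of 0.58 ± 0.13 log2 or 1.49-fold (adjusted p = 0.0282 by limma). Its vehicle level in the Nrf2 null lay below all 3 wild type vehicle arrays, which read 10.72, 10.91 and 11.20, and that difference of -0.51 ± 0.13 was not called (adjusted p = 0.128). With CDDO-Im the Nrf2 null arrays of Ndufa6 overlapped those of the wild type, at 11.28, 11.25 and 11.08.

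Ndufa13, also known as GRIM-19, an accessory subunit of the membrane arm, read 11.05, 11.16 and 11.13 with vehicle and 11.35, 11.55 and 11.54 with CDDO-Im in the Nrf2 null, a rise of 0.37 ± 0.08 or 1.29-fold (adjusted p = 0.0242). In wild type it read 11.11, 11.22 and 11.23 against 11.40, 11.31 and 11.20, and these groups overlapped. Ndufc2, another membrane-arm subunit, read 10.74, 10.68 and 10.94 against 11.004, 11.36 and 11.20 in the Nrf2 null, 0.40 ± 0.11 or 1.32-fold higher with an adjusted p of 0.0471. In wild type Ndufc2 read 10.84, 11.02 and 11.01 against 10.77, 10.96 and 10.80, a difference of -0.11 ± 0.11. Its 4 probe sets differed by 0.26 to 0.43 in the Nrf2 null, so the direction did not rest on the probe set chosen. The difference between the genotypes' responses was -0.51 ± 0.15 for Ndufc2, with an adjusted p of 0.377 by limma, and was not called.

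Ndufaf1, an assembly factor that helps build the membrane arm of complex I, read 8.05, 8.17 and 8.43 with vehicle and 8.63, 8.62 and 8.79 with CDDO-Im in the Nrf2 null, a rise of 0.47 ± 0.10 or 1.38-fold (adjusted p = 0.0233). In wild type it read 8.29, 8.35 and 8.35 against 8.39, 8.51 and 8.25, a difference of 0.05. All 5 calls depended on single arrays. Each was lost without Nrf2 null vehicle replicate 1 or 2, or without Nrf2 null CDDO-Im replicate 2 or 3, with adjusted p up to 0.0794 for Sdhb, 0.119 for Ndufa6, 0.104 for Ndufaf1, 0.104 for Ndufa13 and 0.161 for Ndufc2. The call of Ndufc2 was also lost without wild type vehicle replicate 1 or 2 or any 1 of the wild type CDDO-Im arrays, which enter through the pooled spread. The differences of all 5 stayed positive, at 0.31 log2 or more in each of these fits.

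**Figure D2:**
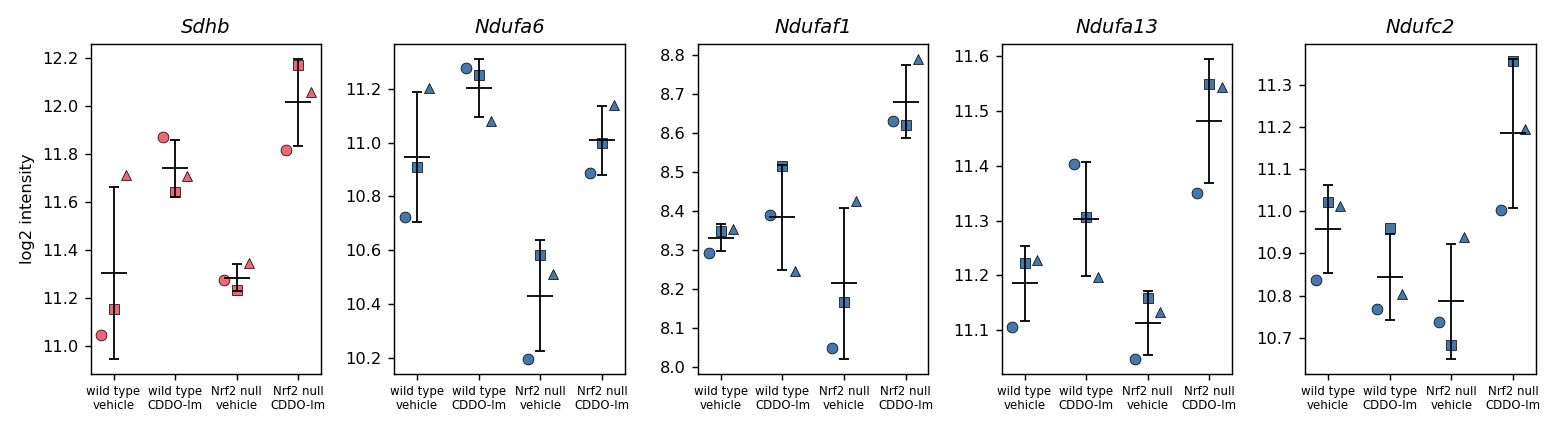
Log2 intensity (vertical axis) of the 5 genes called in the Nrf2 null, with 1 panel per gene, 1 point per array (circle, square and triangle for replicates 1, 2 and 3), and bars for the mean ± SD of 3 arrays. In each panel the 3 Nrf2 null CDDO-Im arrays lie above the 3 Nrf2 null vehicle arrays, for Sdhb between 11.82 and 12.17 against 11.24 to 11.35; the vertical scales differ between panels and do not start at 0.

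Over the 35 complex I subunits the median difference in the Nrf2 null was 0.18 log2, and 18 (51.4%, against 11.6% of all genes) had every CDDO-Im array above every vehicle array. In wild type the median was 0.02 and the same held for 1, Ndufb5, at 0.25 ± 0.09 (2.86% against 8.42% of all genes). That wild type count was 8 (22.9% against 19.4% of all genes) without wild type vehicle replicate 3. It was 9 (25.7% against 12.6%) without wild type CDDO-Im replicate 3 and 2 (5.71% against 16.9%) without wild type CDDO-Im replicate 2. The Nrf2 null count of 18 was 22 (62.9% against 15.2%) without Nrf2 null vehicle replicate 2. Ndufv1, the flavoprotein that binds NADH, read 10.75, 10.87 and 10.90 against 11.03, 11.05 and 11.13 in the Nrf2 null (0.23 ± 0.08, adjusted p = 0.103). In wild type Ndufv1 read 10.74, 10.73 and 10.83 against 10.98, 10.91 and 10.76, with overlap. Ndufs1, the iron-sulphur subunit that takes the electrons on from Ndufv1, read 9.21, 9.58 and 9.58 against 9.60, 9.53 and 9.74 in the Nrf2 null and overlapped there too. Ndufv3, an accessory subunit of the NADH-binding module, differed by 0.35 ± 0.11 in the Nrf2 null (adjusted p = 0.0926) and by 0.02 in wild type.

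Among the other assembly factors of complex I the differences ran both ways. Ndufaf6 read 5.75, 6.33 and 6.54 with vehicle and 6.60, 7.10 and 7.03 with CDDO-Im in the Nrf2 null, 0.70 ± 0.19 higher (adjusted p = 0.0542). It was 0.56 ± 0.19 higher in wild type, at 6.55, 6.55 and 6.86 against 7.39, 7.18 and 7.07 (adjusted p = 0.191), so both genotypes were without overlap. Ndufaf7, a methyltransferase that modifies a complex I subunit, was lower in both, by -0.48 ± 0.12 in wild type (adjusted p = 0.0809) and -0.29 ± 0.12 in the Nrf2 null, again without overlap. Without wild type vehicle replicate 3 the wild type difference of Ndufaf7 was -0.61 with an adjusted p of 0.00455. Ndufaf3 differed by -0.30 in wild type and 0.00 in the Nrf2 null, and Ndufaf4 by 0.30 and 0.12, none of them called.

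In complex III no gene was called in any comparison. All 9 differences in the Nrf2 null were positive, with a median of 0.24 log2 and 0.16 without Nrf2 null CDDO-Im replicate 2. There 3 genes, Uqcrb, Uqcrc2 and Uqcrfs1, were higher without overlap with all arrays in, 33.3% against 11.6% of all genes. Uqcrfs1, the Rieske iron-sulphur protein, read 11.14, 11.42 and 11.24 with vehicle and 11.45, 11.58 and 11.58 with CDDO-Im in the Nrf2 null (0.27 ± 0.08, adjusted p = 0.0865). In wild type Uqcrfs1 read 11.44, 11.43 and 11.45 against 11.58, 11.59 and 11.42. Cyc1, cytochrome c1, which hands electrons to cytochrome c, read 11.12, 11.24 and 11.16 against 11.21, 11.48 and 11.55 in the Nrf2 null, and 11.05, 11.06 and 11.37 against 11.67, 11.37 and 11.21 in wild type. Its differences were alike in size in both genotypes, 0.24 and 0.26, and the groups overlapped in both. Uqcrc1, a core protein of the matrix side, read 11.14, 11.39 and 11.27 against 11.38, 11.55 and 11.67 in the Nrf2 null, and overlapped narrowly.

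In complex IV the median over the 9 liver subunits was 0.10 log2 in the Nrf2 null and 0.02 in wild type, with no call. The Nrf2 null median was 0.05 without Nrf2 null CDDO-Im replicate 2 and 0.16 without Nrf2 null vehicle replicate 2, an array with acinar transcripts. Cox4i1, a nuclear-coded subunit that regulates the enzyme, read 12.46, 12.42 and 12.41 with vehicle and 12.55, 12.59 and 12.66 with CDDO-Im in the Nrf2 null, 0.17 ± 0.07 higher (adjusted p = 0.239). In wild type it read 12.38, 12.35 and 12.45 against 12.65, 12.45 and 12.43. Cox5a, which joins the enzyme early in its assembly together with Cox4i1, read 12.06, 12.35 and 12.23 against 12.46, 12.51 and 12.57 in the Nrf2 null (0.30 ± 0.10, adjusted p = 0.104), and 12.11, 12.10 and 12.31 against 12.44, 12.40 and 12.17 in wild type. The other Cox5a probe sets, with means of 12.27 and 11.29, differed by 0.12 and 0.11 in the Nrf2 null and by 0.00 and 0.01 in wild type. With the probe sets chosen, Cox4i1, Cox5a and Cox6b1, 33.3% of the 9 subunits, were higher without overlap in the Nrf2 null, against 11.6% of all genes. The single-gene probe set for Cox7c had a mean of 4.44 and that for Ndufb4 in complex I a mean of 4.74, both below the array medians of 5.77 to 5.83, so those probe sets say little about either subunit. Probe sets that name Ndufb4 together with Ndufb4b and Ndufb4c were left out by the rule and read 10.77 and 10.64 with vehicle and 11.04 and 10.94 with CDDO-Im in the Nrf2 null.

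In complex V the median over 17 subunits was 0.07 log2 in the Nrf2 null and 0.04 in wild type, again with no call. The Nrf2 null median was 0.04 without Nrf2 null CDDO-Im replicate 3, 0.13 without Nrf2 null vehicle replicate 3 and 0.12 without Nrf2 null CDDO-Im replicate 1. Atp5a1 and Atp5b code for the alpha and beta subunits of the catalytic head. Atp5a1 read 12.36, 12.52 and 12.52 with vehicle and 12.56, 12.74 and 12.81 with CDDO-Im in the Nrf2 null, and 12.41, 12.31 and 12.61 against 12.88, 12.66 and 12.51 in wild type. The difference was 0.24 ± 0.11 in both genotypes with the probe set chosen. Another Atp5a1 probe set, with a mean of 11.94, differed by 0.04 in wild type and 0.12 in the Nrf2 null. A dimmer one, with a mean of 6.71, differed by -0.14 and 0.12. Atp5b read 12.34, 12.46 and 12.49 against 12.70, 12.74 and 12.78 in the Nrf2 null (0.31 ± 0.10, adjusted p = 0.101), and 12.50, 12.42 and 12.69 against 12.86, 12.77 and 12.50 in wild type. Atp5c1, the gamma subunit that turns inside the head, read 11.65, 11.79 and 11.76 against 12.06, 12.07 and 12.23 in the Nrf2 null, 0.39 ± 0.11 higher with an adjusted p of 0.0646. Atp5e, the epsilon subunit of the same stalk, had the opposite sign, at 10.85, 11.02 and 11.05 against 10.63, 10.60 and 10.79 (-0.30 ± 0.13, adjusted p = 0.212). The Atp5c1 and Atp5e groups were each without overlap, and neither gene was called. Of the 17 subunits, 6 were higher and 2 lower without overlap, 35.3% and 11.8% against 11.6% and 11.4% of all genes.

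**Figure D3:**
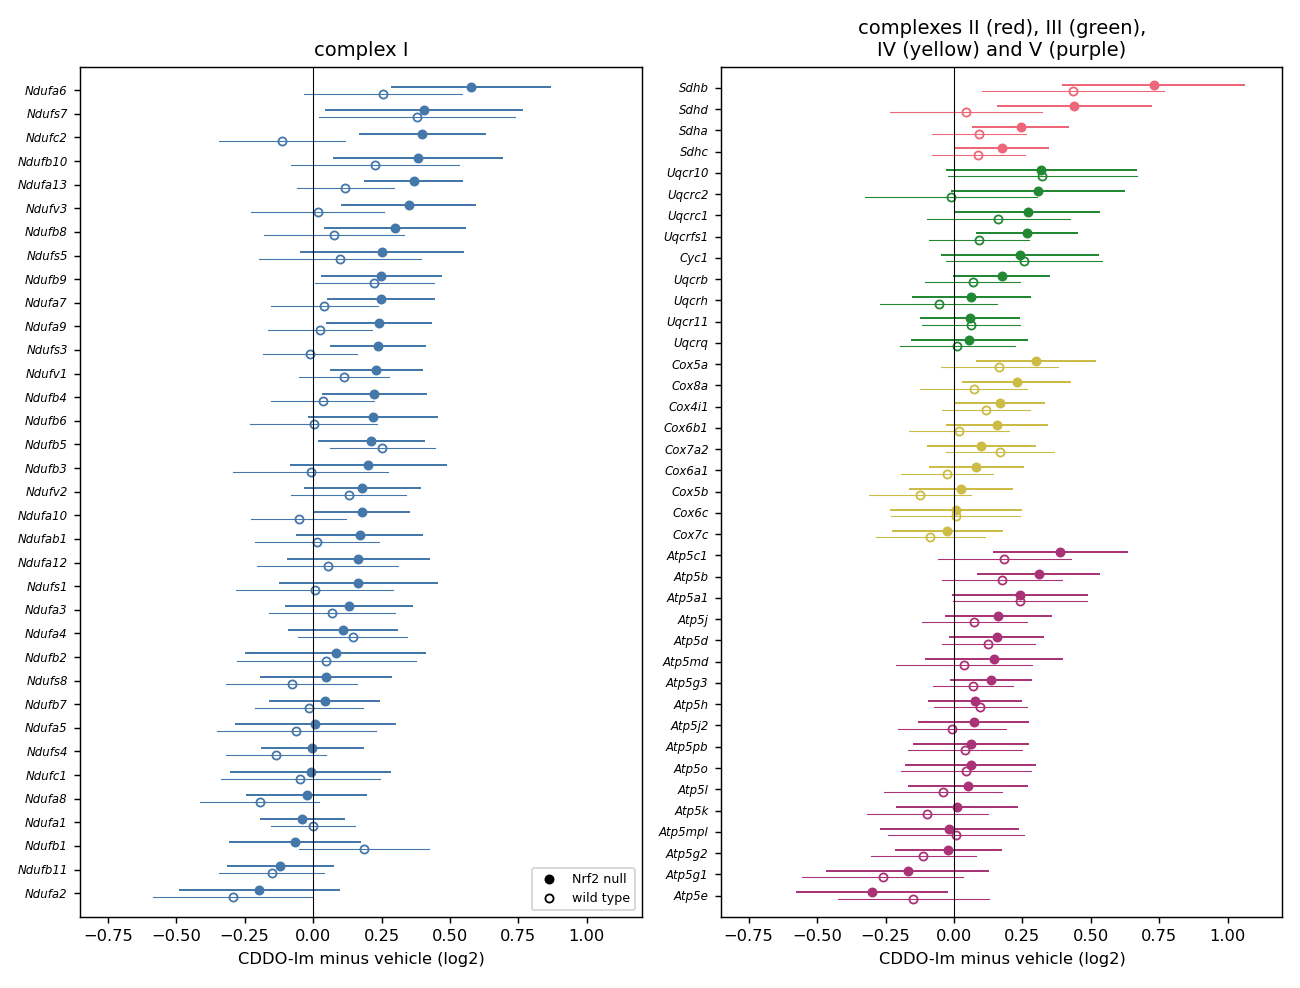
CDDO-Im minus vehicle (horizontal axis, log2) for each of the 74 subunits, filled circles for Nrf2 null and open circles for wild type, with 95% intervals from the model over 12 arrays as lines. Subunits are ordered within each complex by the Nrf2 null value, from 0.58 for Ndufa6 to -0.20 for Ndufa2 in complex I, and most filled circles lie to the right of 0.

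Of the isoforms best known from other tissues, none was called. Cox6b2, the testis isoform of Cox6b1, had the largest difference of all members in wild type, 1.12 ± 0.38 log2 (adjusted p = 0.182), and this was carried unevenly by the arrays. It read 5.72, 5.59 and 5.38 with vehicle and 7.79, 6.49 and 5.78 with CDDO-Im in wild type, and 6.22, 5.41 and 5.61 against 5.39, 5.55 and 5.48 in the Nrf2 null. One wild type CDDO-Im array stood far above the rest and one within the range of the vehicle arrays of the Nrf2 null. Cox7a1, Cox7b2 and Cox8b, isoforms of muscle, testis and muscle, had means below the array medians. Cox4i2, the isoform of lung and hypoxia, differed by 0.13 in wild type and -0.07 in the Nrf2 null.

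The genotypes were also compared directly. With vehicle, 0 of the 91 members were called by limma, where 0.39% of all genes were, and 10 had an unadjusted p under 0.05 (7 higher in Nrf2 null, 3 lower) against 13.2% of all genes. The groups were without overlap for 20 members, 22% of them against 17% of all genes, 13 higher and 7 lower in the Nrf2 null, where 8.55% and 8.49% of all genes were. The lower ones included Ndufa6, Ndufaf6, Ndufs1, Sdha and Uqcrfs1, and the higher ones Uqcr11, a small subunit of complex III at 0.26 ± 0.08, and Ndufb11 at 0.25 ± 0.09. These vehicle groups hold both arrays with acinar transcripts, and their overlap counts were not rerun without either array. With CDDO-Im, 0 members were called against 1.45% of all genes, and 19 had an unadjusted p under 0.05 (18 higher in Nrf2 null, 1 lower) against 11.3% of all genes. In sign 71 of 91 were higher, with a median of 0.14 log2, beside 52.2% and 0.01 over all genes. The members' median was 0.22 without wild type CDDO-Im replicate 1 and 0.07 without wild type CDDO-Im replicate 3. The groups were without overlap for 14 members, 15.4% against 16.8% of all genes, and 13 of them were higher in the Nrf2 null, as were 9.01% of all genes, among them Ndufc2, Ndufv1, Ndufa9 and Ndufa10. This comparison shares its Nrf2 null arrays with the comparison of treatment above, so the 2 sets of values are not separate evidence.

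The response to CDDO-Im was not shown to differ between genotypes for any member. No member was called for the interaction by limma, where 0.137% of all genes were, and 7 had an unadjusted p under 0.05 (2 with the larger difference in wild type, 5 in the Nrf2 null) against 7.1% of all genes, although 71 of 91 members had the smaller, or more negative, difference in wild type (median -0.10 log2). Over all genes 51.6% had the larger, or less negative, difference in wild type, with a median of 0.01 log2. The members' median was -0.17 without wild type CDDO-Im replicate 1, -0.03 without wild type CDDO-Im replicate 3, -0.06 without Nrf2 null vehicle replicate 1 and -0.06 without Nrf2 null CDDO-Im replicate 3. The 95% interval of the interaction lay within 0.5 log2 of 0, a 1.41-fold difference, for 64 of the 91 members, and within 1 log2 for 90. For the treatment itself the interval lay within 0.5 log2 of 0 for 78 members in wild type and 69 in the Nrf2 null. The median half-width of these intervals was 0.22 log2 for the treatment and 0.30 for the interaction. The intervals are not adjusted for the number of genes tested, whereas the calls are. A difference larger than its half-width was therefore not always called, as for Sdhd at 0.44 in the Nrf2 null.

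**Figure D4:**
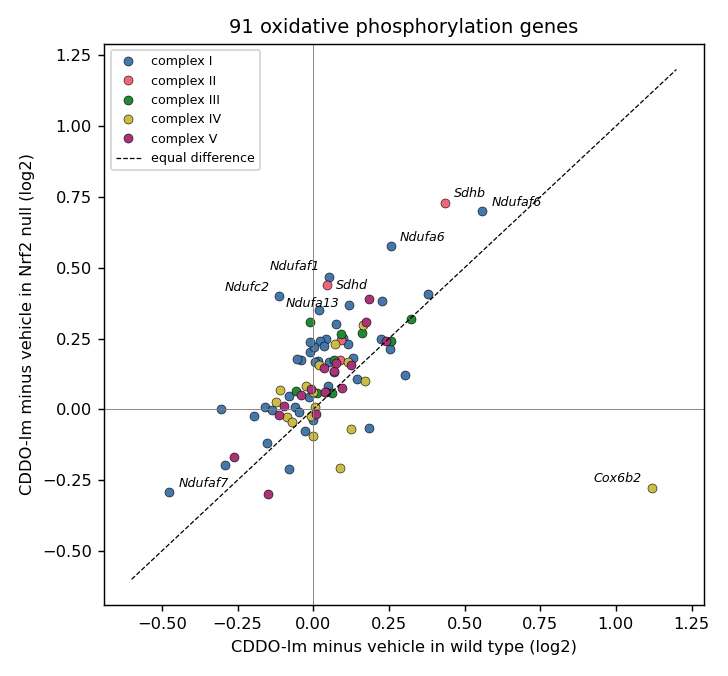
CDDO-Im minus vehicle in wild type (horizontal axis, log2) against the same difference in Nrf2 null (vertical axis, log2), 1 point per gene for the 91 genes, coloured by complex, with a dashed line where both are equal. Most points lie above the line, Sdhb at 0.44 and 0.73 among them, and Cox6b2 lies far below it at 1.12 and -0.28.

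Markers of several cell types also differed with treatment. The median level of the hepatocyte markers in the Nrf2 null was 13.43 to 13.65 on the vehicle arrays and 13.81 to 13.99 on the CDDO-Im arrays, with 1 of the 7 measured markers called, and in wild type 13.71 to 13.83 against 13.86 to 13.99. Taken as deviations from each marker's own mean, their medians were -0.08 to -0.06 and 0.01 to 0.03 in the Nrf2 null, and -0.06 to 0.09 and -0.03 to 0.07 in wild type, where they overlapped. Neutrophil markers, 6 of 8 measured, had medians of 6.34 to 6.63 with vehicle and 6.10 to 6.30 with CDDO-Im in the Nrf2 null, with 2 called, and of 6.26 to 6.41 and 6.06 to 6.22 in wild type, with 0 called. Taken as deviations, their medians overlapped in the Nrf2 null (-0.080 to 0.250 and -0.083 to -0.004). In wild type they did not (0.032 to 0.058 and -0.178 to -0.005). Sinusoidal endothelial markers, 8 of 8 measured, had median deviations of -0.41 to 0.02 with vehicle and 0.10 to 0.14 with CDDO-Im in the Nrf2 null, with 1 called, and 2 were called in wild type, where the deviations overlapped (-0.15 to 0.11 and -0.05 to 0.03). The -0.41 was on Nrf2 null vehicle replicate 2, an array with acinar transcripts. Their median levels overlapped in the Nrf2 null (7.44 to 8.06 and 7.95 to 8.12) and in wild type (7.67 to 7.86 and 7.83 to 7.93). Kupffer cell markers had median deviations of -0.810 to -0.085 with vehicle and -0.032 to 0.203 with CDDO-Im in the Nrf2 null. Stellate cell markers had -0.199 to 0.001 and 0.006 to 0.090. Skeletal muscle markers were lower with CDDO-Im, at 0.028 to 0.102 and -0.211 to -0.006. For these sets no marker was called, the median levels overlapped in the Nrf2 null, and the wild type deviations overlapped. The part of these marker shifts in the subunits' differences was not tested. Because whole liver was measured, fewer cells of a type and less RNA per cell cannot be told apart. Without the 2 arrays that carried acinar transcripts, 4 members were called in the Nrf2 null (Sdhb, Ndufa13, Ndufa6 and Uqcrfs1) and 3 in wild type (Sdhb, Ndufaf7 and Ndufs7). Those are 4.4% and 3.3% of the members, against 6.35% and 7.11% of all genes called in the same fits.

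Promoter sequence was examined because subunits of different complexes shared a direction. RefSeq promoter windows (GRCm38.p6), from 250 bases before to 50 after each gene's start, were matched for 74 of the 91 members and searched on both strands for 5 motifs. The nuclear respiratory factor 1 motif was in 16 of the 74 windows, 21.6%, against 7.98% of the windows of all genes tested and 4.78% of all windows. The ETS motif CCGGAAG, which GABP binds, was in 18 (24.3% against 13.8% and 9.12%), and the YY1 motif AANATGGCG in 8 (10.8% against 3.9% and 2.51%). The oestrogen related receptor motif TCAAGGTCA was in 2 windows (2.7% against 0.355% and 0.407%), and the antioxidant response element core TGACNNNGC, which Nrf2 binds, in 10 (13.5% against 14.2% and 12.5%). The motifs may share bases with one another, and a match describes letters only.

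The matches in the windows of the 5 called genes are shown, with those of Sdhd, which was not called and was added after its 3 motifs were seen. Other members with matches, such as Sdha (nuclear respiratory factor 1) and Ndufaf4 (nuclear respiratory factor 1 and the antioxidant response element core), are not printed. Each is printed 5′ to 3′ on the gene's strand with the match in capitals and up to 10 bases on either side. The Sdhb match is at chr4:140961267-140961293 (plus strand) after the start. The Sdhd matches, all on the minus strand, are at chr9:50603909-50603938 and chr9:50603879-50603905 before the start and chr9:50603800-50603823 after it. The Ndufa6 match is at chr15:82354249-82354278 (minus strand) after the start and that of Ndufaf1 at chr2:119662836-119662862 (minus strand) before it.
Sdhb, ETS: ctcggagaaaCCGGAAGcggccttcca
Sdhd, nuclear respiratory factor 1: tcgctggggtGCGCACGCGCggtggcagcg
Sdhd, ETS on the opposite strand: cgtctcctgcCTTCCGGttcacgcttc
Sdhd, oestrogen related receptor on the opposite strand: ggttgtagagTGACCTTGAgccct
Ndufa6, nuclear respiratory factor 1 on the opposite strand: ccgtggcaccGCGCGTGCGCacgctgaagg
Ndufaf1, ETS: gggaccacaaCCGGAAGcgtggcgaac
The windows of Ndufa13 and Ndufc2 held none of the 5 motifs, and the antioxidant response element core was in none of the 6 windows. Only exact matches within these windows were searched, and whether the motifs bear on the differences was not tested.

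Genes that regulate or serve the respiratory chain were followed through lists of their own. Of 17 regulators of mitochondrial gene expression, 3 were called in the Nrf2 null, all higher (17.6% against 5.9% of all genes called and 3.58% called higher), and the list's median was 0.21 log2 beside -0.01 over all genes. Ppargc1b, the coactivator PGC-1 beta, was 1.004 ± 0.20 log2 higher there (7.66 ± 0.08 with vehicle, 8.67 ± 0.14 with CDDO-Im, SD, n = 3, adjusted p = 0.017 by limma) and 0.19 ± 0.20 higher in wild type, where it was not called. Tfb2m, a factor that starts mitochondrial transcription, was called in both genotypes, at 0.34 ± 0.08 in the Nrf2 null (adjusted p = 0.0253) and 0.39 ± 0.08 in wild type (adjusted p = 0.0259). Polg2, the accessory subunit of the mitochondrial DNA polymerase, was 0.69 ± 0.17 higher in the Nrf2 null (adjusted p = 0.0405). The factors whose motifs were searched were not called. In the Nrf2 null the differences were -0.13 for Nrf1, 0.40 for Gabpa, 0.30 for Yy1 and 0.51 ± 0.14 for Esrra, the oestrogen related receptor alpha, which had an adjusted p of 0.0501.

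Ubiquinone and the assembly of the complexes gave further calls in the Nrf2 null. Of 12 measured genes of cytochrome c and ubiquinone synthesis, 3 were called higher, Coq8a at 1.01 ± 0.23 (adjusted p = 0.0264), Coq10a at 0.64 ± 0.12 (adjusted p = 0.0121) and Coq9 at 0.62 ± 0.13 (adjusted p = 0.0196), and none was called in wild type. That is 25% of the list, against 5.9% of all genes. Cycs, cytochrome c itself, differed by -0.21. Of 36 measured assembly factors outside the symbol rule, 3 were called higher and 1 lower in the Nrf2 null (11.1% against 5.9%). Surf1 and Cox11, which serve complex IV, were 0.58 ± 0.10 and 0.42 ± 0.11 higher, Uqcc1, which serves complex III, was 0.40 ± 0.10 higher, and Foxred1, which serves complex I, was lower at -0.55 ± 0.12. In wild type 1 was called, 2.78% of the list against 1.82% of all genes. This was Sdhaf1, an assembly factor of complex II, which was lower at -0.64 ± 0.10 (adjusted p = 0.00617 by limma) while no complex II subunit was called there. In the Nrf2 null Sdhaf1 was also lower without overlap, at -0.34 ± 0.10 (adjusted p = 0.0594), and the genotypes' differences were not shown to differ (adjusted p = 0.727).

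The remaining lists held 0 to 4 calls each in the Nrf2 null, where 5.9% of all genes were called. Of 15 measured genes of the citric acid cycle and pyruvate dehydrogenase, Idh3b and Dlat were called higher in the Nrf2 null, at 0.63 ± 0.12 and 0.69 ± 0.18 (13.3% of the list). Of 18 genes of mitochondrial import, chaperones and proteases, Timm44 was called higher in the Nrf2 null (0.48 ± 0.09) and Timm8a1 in wild type (0.78 ± 0.14), 5.56% of the list in each, where 1.82% of all genes were called in wild type. Of 8 measured carriers, the channel gene Vdac1 was called higher in the Nrf2 null, at 0.51 ± 0.11 (12.5% of the list). Of 76 mitochondrial ribosomal protein genes, Mrpl9 and Mrpl44 were called higher there (0.69 and 0.48), Mrps26 and Mrps12 lower (-0.44 and -0.47), together 5.26% of the list, and none in wild type. The only mitochondrially coded subunit of 13 with a single-gene probe set was ND5, which read 13.48, 13.50, 13.47 and 13.56 on average in the 4 groups, with no call. Between genotypes, the lists held 2 calls, both with CDDO-Im, where 1.45% of all genes were called. Coq7, of ubiquinone synthesis, was lower in the Nrf2 null at -0.51 (adjusted p = 0.0359 by limma, 8.33% of its list). Mrpl45 was higher there at 0.42 (adjusted p = 0.0177 by limma, 1.32% of its list). Of the 23 calls on these lists over the 5 comparisons, 1, that of Sdhaf1 in wild type, kept its adjusted p under 0.05 whichever array was left out. The call of Surf1 was lost without Nrf2 null CDDO-Im replicate 3 and that of Coq10a without Nrf2 null CDDO-Im replicate 2.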

How the data were processed

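The deposited values are log2 intensities that come, per the submitters' processing notes, from RMA, whose version is not given in the sources used here. They were used unchanged. Of 45101 probe sets, 64 were controls and 34945 named 1 gene. Where several of these named a gene, the brightest on average over 12 arrays stood for it, giving 18193 genes. Of the 91 members, 51 had several probe sets. No filter on low signal was applied, and Entrez Gene identifiers matched 34741 probe sets without changing a symbol. A model of 4 group means over the 12 arrays was fitted in limma 3.58.1 (R 4.3.3, statmod 1.5.0), with its moderated two-sided test and Benjamini-Hochberg adjustment over all genes, for CDDO-Im against vehicle in each genotype, genotype within each treatment, and their interaction. Calls needed an adjusted p under 0.05, and the code was tested on simulated data. The number of arrays limits the precision. Members and lists were chosen with earlier results of these data known. Values on every array are given for called members (up to 4 per complex and comparison) and a fixed set of core subunits; other members whose values are given were chosen after their values were seen. Of the other lists, up to 4 called genes are named, and genes named beyond these were likewise chosen after their values were seen. Up to 22 alternatives were run for each of the 58 results examined (fewer for the interaction, medians and non-overlap counts); those for list genes were added after the data were seen.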

Additional observations from a re-analysis of the deposited data

How the results depend on the processing

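Of the 58 results rerun under 16 to 22 alternatives each, none that was called under either setting changed sign. The count of members called in the Nrf2 null, 5, ranged from 0 to 8 when each array was left out in turn. It was 0 without Nrf2 null vehicle replicate 1 or 2 or Nrf2 null CDDO-Im replicate 2 or 3, where all genes together had 249, 348, 278 and 97 calls instead of 1074, and 8 without wild type vehicle replicate 3 (8.79% of members against 8.88% of all genes). It was 9 with array weights (9.89% against 10.4%) and 3 with a trended, robust prior (3.3% against 5.25%). At an adjusted p under 0.01 it was 0, where 0.533% of all genes were called. In wild type the count of 0 ranged from 0 to 2 over single arrays left out (2 without wild type vehicle replicate 3, 2.2% against 7.61% of all genes), and was 8 with array weights (8.79% against 11.1%) and 3 without both arrays with acinar transcripts (3.3% against 7.11%). For Nrf2 null against wild type with CDDO-Im, 0 became 3 without wild type CDDO-Im replicate 1 (3.3% against 1.08%). It became 1 (Cox6b2, -1.67) without wild type CDDO-Im replicate 3 (1.1% against 0.89%). With vehicle, 0 became 4 with array weights (4.4% against 8.12%). The wild type median over members ranged from -0.03 to 0.11 and that of the Nrf2 null from 0.11 to 0.16. The labels do not say whether replicate numbers pair the arrays. Correlations of same-numbered arrays ran from -0.30 to 0.28 over 18 pairs, with 4 above 0.1. Differently numbered arrays were not compared, so these values cannot decide it. With a replicate block the Nrf2 null count was 6 (6.59% against 5.5% of all genes), with Ndufaf6 added (adjusted p = 0.0479 by limma), and every other count stayed at 0. The causes of these shifts were not tested.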
